A study of Mus musculus with 16 samples.

Results

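Macrophages are the phagocytes of skeletal muscle. They were read here through 10 genes, taken by symbol from the deposited tables: Adgre1, Cd68, Csf1r, Mrc1, Cd163, C1qa, C1qb, C1qc, Lyz2 and Gpnmb. All 10 were among the 35415 genes listed and among the 14749 genes that passed the filter on low counts. Gastrocnemius muscle, a calf muscle rich in fast fibres, was taken from wild type male BALB/c mice that were 8 weeks old at purchase, and polyA RNA of 16 mice was sequenced, 4 in each of 4 groups. The C group (control) received saline and no training. The E group (exercise) received saline and ran on a treadmill on most days of the week for 4 weeks. The T group (tumor-bearing) was inoculated under the skin with CT26 cells, a BALB/c line of colon carcinoma, and was not trained. The TE group (tumor-bearing plus exercise) was inoculated and trained, starting the day after inoculation. The injection was made on the left hind limb, and the side from which the muscle came is not given in the sources used here. All libraries carry the same batch label.

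Muscle holds resident macrophages that clear debris and support the fibres, and blood monocytes enter after injury and become macrophages there. Adgre1 encodes F4/80, a surface receptor long used to stain mouse macrophages, and Cd68 encodes a glycoprotein of their lysosomes. Csf1r is the receptor for the growth factors Csf1 and Il34, on which macrophages depend. Mrc1 and Cd163 are scavenger receptors, for mannose-bearing glycoproteins and for haptoglobin-bound hemoglobin, and are typical of resident and repair-associated cells. C1qa, C1qb and C1qc encode the 3 chains of complement C1q, which tissue macrophages secrete. Lyz2 encodes lysozyme and is also made by neutrophils. Gpnmb encodes a transmembrane glycoprotein of lysosome-rich macrophages, osteoclasts and melanocytes. The RNA came from whole muscle, so that fewer cells of a type and less RNA per cell cannot be told apart.

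Upstream sequences are shown for C1qb and C1qc, which moved together across the libraries, and for Gpnmb, which did not move with them. RefSeq promoter sequences of build GRCm38.p6 were matched for 7 of the 10 genes, and not for Adgre1, Csf1r and C1qa. Each is printed 5′ to 3′ on the strand of its gene and ends before the most upstream transcript start found in the window. The capitals mark GAGGAA, a core of sites for PU.1, the master transcription factor of macrophages, or its reverse complement TTCCTC. The C1qb stretch is chr4:136886201-136886450 on the minus strand, the C1qc stretch is chr4:136893066-136893164 on the minus strand, and the Gpnmb stretch is chr6:49036268-49036491 on the plus strand.
C1qb: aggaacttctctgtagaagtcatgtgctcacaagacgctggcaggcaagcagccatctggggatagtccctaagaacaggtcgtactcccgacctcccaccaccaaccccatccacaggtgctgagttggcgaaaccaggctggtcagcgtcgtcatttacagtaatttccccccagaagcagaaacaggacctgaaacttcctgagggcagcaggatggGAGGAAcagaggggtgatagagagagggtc
C1qc: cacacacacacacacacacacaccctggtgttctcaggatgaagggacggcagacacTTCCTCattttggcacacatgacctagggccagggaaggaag
Gpnmb: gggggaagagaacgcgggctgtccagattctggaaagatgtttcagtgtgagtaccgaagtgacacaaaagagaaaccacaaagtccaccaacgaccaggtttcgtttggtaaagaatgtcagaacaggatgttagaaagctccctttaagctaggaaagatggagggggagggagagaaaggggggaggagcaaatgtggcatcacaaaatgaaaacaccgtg

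In windows of 250 bases before to 50 bases after the start, GAGGAA or TTCCTC stood in 4 of the 7 matched genes (C1qb, C1qc, Cd68 and Mrc1) and in 28.3% of all promoters in the table. The letters CATGTG or CACATG, an E-box that MITF family factors can bind, stood in 3 of the 7 (C1qb, C1qc and Mrc1) and in 14.2% of all promoters. CACGTG stood in none of the 7 and in 7.15% of all promoters. A match is a description of the letters and not a sign that a factor was bound.

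The level of each gene was first compared per length, as FPKM (fragments per kilobase of gene, scaled to the library total). Lyz2 was the highest, with a mean of 61.2 ± 25.2 FPKM over the 16 libraries (SD), above 95.1% of the tested genes. The C1q chains followed, C1qa at 11.5 ± 3.65, C1qc at 7.83 ± 3.12 and C1qb at 7.47 ± 2.68 FPKM, and C1qc and C1qb were closer than their spread. Cd68 at 3.53 ± 1.01, Csf1r at 2.84 ± 0.945 and Mrc1 at 2.11 ± 0.786 FPKM formed the middle of the order, each within 1 SD of its neighbour. Cd163 at 0.951 ± 0.491, Gpnmb at 0.788 ± 0.638 and Adgre1 at 0.426 ± 0.192 FPKM were the lowest, and their ranges overlapped. Adgre1 was thus measured from few reads, 18 to 105 counts a library, whereas Lyz2 had 1138 to 4284. Across libraries the spread of Gpnmb was the widest of the 10 relative to its mean (coefficient of variation 80.9%) and that of Cd68 the narrowest (28.5%). The fibre genes were far above these levels, and Acta1, the actin of muscle fibres, had a mean of 20230 FPKM.

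The libraries held 35628211 to 37635741 counts each, and 3 counts were at most 0.0842 CPM, which are counts per 1000000 counts of the TMM-scaled library. Some libraries carried RNA of other cells. The summed B cell markers were 59.3 CPM in TE replicate 4, 19.5 in C replicate 3 and 14.3 in E replicate 1, against 0.115 to 6.2 in the other 13, and lymph node stroma markers were highest in the same 3 libraries. T replicate 4 had 71.5 CPM of Myh3, the embryonic myosin of regenerating fibres, against 1.36 to 7.61 in the other 15. All comparisons were repeated without the 3 lymph node-rich libraries.

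The first question was whether muscle of tumor-bearing mice held more macrophage RNA without training (T vs C). All 10 genes had a higher fitted level in T, with log2 fold changes of 0.48 to 1.16 and a median of 0.77, where the median of all tested genes was near 0 and 49.7% were above it. None of the 10 passed an adjusted p of 0.05 by the quasi-likelihood F-test of edgeR (Benjamini-Hochberg adjustment over all tested genes), where 0.678% of all genes passed. At an unadjusted p under 0.05, 6 of the 10 were higher (C1qa, C1qb, C1qc, Cd163, Gpnmb and Mrc1), against 8.23% of all genes called higher at that threshold. By DESeq2, which called 2.85% of all genes, 1 of the 10 was called (C1qb), and by limma on log2(FPKM + 1) none. The 10 genes share cells and libraries and are not independent of each other, so the count of directions is a description.

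The C1q chains, the macrophage-made start of the classical complement pathway, were examined first. C1qb had 5.39, 9.48, 4.8 and 5.47 CPM in C, 7.3, 8.9, 14 and 14.3 in T. Only C replicate 2 of the C libraries reached the T range. The mean went from 6.29 ± 2.15 (SD, n = 4) to 11.1 ± 3.54 CPM, a log2 fold change of 0.82 ± 0.26 (SE, edgeR's adjusted p = 0.152). C1qa had 10.5, 14.3, 9.61 and 7.67 CPM in C and 11, 12.2, 21.9 and 18.6 in T, a log2 fold change of 0.60 ± 0.23 (edgeR's adjusted p = 0.242). C1qc had 7, 11.4, 6.21 and 5.58 CPM in C and 9.35, 7.88, 16.8 and 15.9 in T, a log2 fold change of 0.73 ± 0.28 (edgeR's adjusted p = 0.235). In all 3 genes, T replicates 3 and 4 lay above every C library, and T replicates 1 and 2 lay within the C range. In GRCm39 the chains lie side by side over 20.2 kb of chromosome 4: C1qb at chr4:136606009-136613511, C1qc at chr4:136616466-136620376 and C1qa at chr4:136623223-136626161, all on the minus strand. GENCODE places a long noncoding RNA, Gm69251, on the opposite strand over C1qb and the end of C1qc, and since the strand setting of the counting is not given in the sources used here, reads of that RNA could not be told from theirs.

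**Figure D1:**
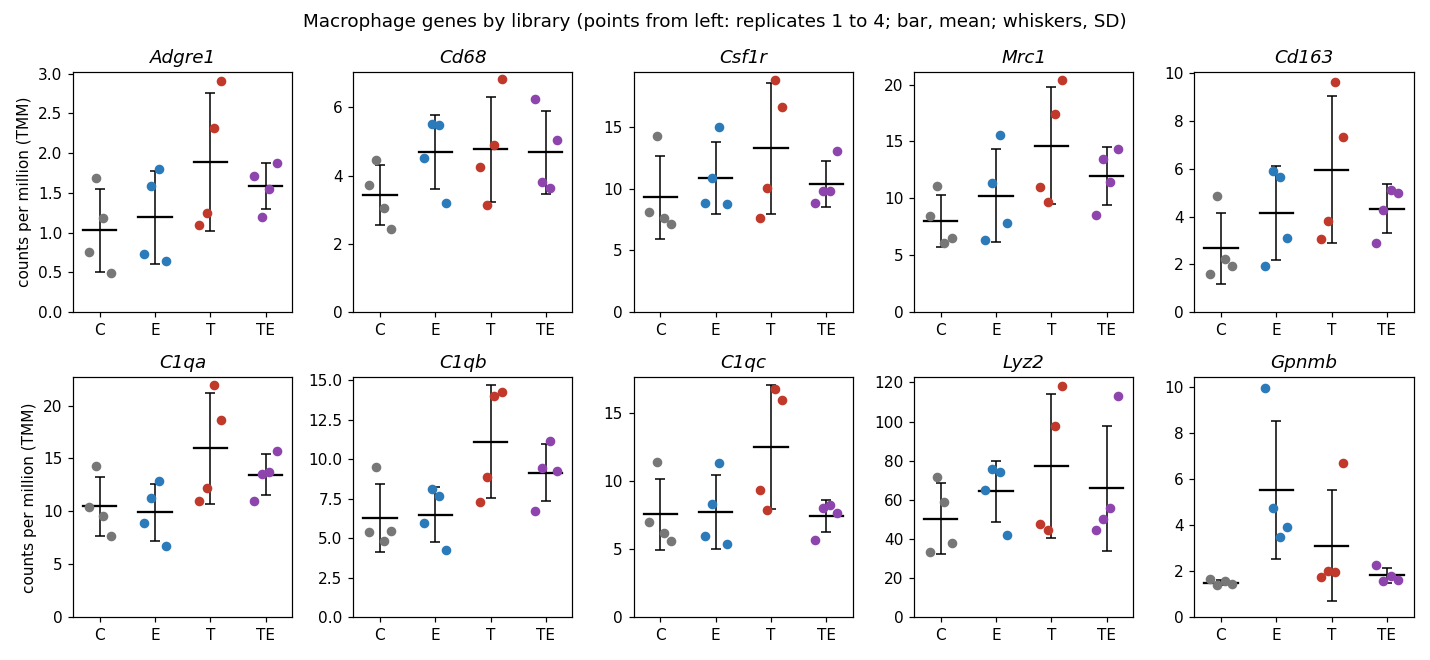
TMM-scaled CPM (vertical axes, from 0) of the 10 macrophage genes in the C, E, T and TE groups (horizontal axes), 4 libraries a group in order of replicate number, with the group mean as a bar and the SD as whiskers. In most panels T replicates 3 and 4 are the highest points, and in the Gpnmb panel all 4 E libraries, from 3.49 to 9.96 CPM, lie above all 4 C libraries, from 1.39 to 1.66.

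The scavenger receptors had the same layout. Cd163 had 1.6, 4.88, 2.24 and 1.95 CPM in C and 3.06, 3.81, 9.63 and 7.35 in T. C replicate 2 lay above T replicates 1 and 2, so the groups overlapped. The log2 fold change of Cd163 was 1.16 ± 0.41 (edgeR's adjusted p = 0.208), the highest of the 10. Mrc1 had 8.43, 11.1, 6.1 and 6.54 CPM in C and 11, 9.67, 17.4 and 20.4 in T, with a log2 fold change of 0.86 ± 0.28 (edgeR's adjusted p = 0.174). Mrc1 lies at chr2:14234151-14336926 and Cd163 at chr6:124281606-124307560, both on the plus strand of GRCm39, and Gm56975, a noncoding RNA of the opposite strand, overlaps Cd163.

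Of the identity genes, Adgre1 had 0.758, 1.69, 1.19 and 0.495 CPM in C and 1.1, 1.24, 2.32 and 2.9 in T, a log2 fold change of 0.87 ± 0.42 (edgeR's adjusted p = 0.358). Cd68 had 2.45 to 4.47 CPM in C and 3.15 to 6.82 in T, a log2 fold change of 0.48 ± 0.25 (edgeR's adjusted p = 0.410). For both, the groups overlapped and the difference was within about 2 standard errors. Csf1r had 8.14, 14.3, 7.64 and 7.17 CPM in C and 7.67, 10, 18.8 and 16.6 in T, a log2 fold change of 0.51 ± 0.27 (edgeR's adjusted p = 0.410). Csf1r lies at chr18:61229714-61266535 on the plus strand of GRCm39 and overlaps Hmgxb3, a protein-coding gene of the opposite strand with 738 to 928 counts a library, so its counts carry the same uncertainty about strand. Its ligands did not pass the test either: Csf1 had a log2 fold change of 0.25 (edgeR's adjusted p = 0.524) and Il34 one of -0.02 (edgeR's adjusted p = 0.978). Adgre1 lies at chr17:57665573-57790527 on the plus strand and Cd68 at chr11:69555037-69557067 on the minus strand, where Gm73992, a noncoding RNA of the opposite strand, overlaps it.

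Lyz2 had 33.2, 71.7, 58.8 and 37.8 CPM in C and 47.9, 44.4, 97.9 and 118 in T, a log2 fold change of 0.61 ± 0.34 (edgeR's adjusted p = 0.446). The T and C libraries overlapped, and TE replicate 4, the library richest in lymph node genes, was at 113 CPM against 44.7, 50.1 and 55.8 in the other TE libraries. Lyz2 (chr10:117111557-117118346, minus strand) stands 5351 bases from Lyz1, a near-identical paralog that had 114 to 548 counts a library, and the split of reads between them is uncertain. A noncoding RNA of the opposite strand, Gm67237, also overlaps Lyz2. Neutrophil markers were also higher in T vs C, in 9 of 10 tested genes. Their summed level was 2.28 to 16.9 CPM in C and 11.3 to 55.6 in T, highest in T replicate 4. Lcn2 alone reached 14 CPM in C. Of the 10 tested, 5 (Ltf, Ngp, Retnlg, S100a8 and S100a9) were called higher in T vs C. In TE vs E all 10 of these markers were higher, with a median log2 fold change of 1.99, and none was called. There 6 had an unadjusted p under 0.05, where 9.23% of all genes had. The members' median in TE vs E was 0.05. S100a9, a subunit of the calprotectin of neutrophils and monocytes, rose by a log2 fold change of 3.38 (edgeR's adjusted p = 0.015). Csf3r, the receptor for granulocyte colony-stimulating factor, was also called for tumor averaged over training (log2 fold change 1.33, edgeR's adjusted p = 0.0092), whereas Lcn2, a siderophore-binding protein, was not called in any comparison and had -0.39 in T vs C (edgeR's adjusted p = 0.893). What part of the Lyz2 difference came from neutrophils was not tested.

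The size of the T vs C difference depended on single libraries. Without T replicate 3 the median log2 fold change of the 10 genes was 0.62. There 3 genes had an unadjusted p under 0.05, where 1585 of 14968 tested genes had one in either direction. Without T replicate 4 the median was 0.55, and 3 genes had such a p, where 2041 of 14966 tested genes had. Without T replicate 2 all 10 genes had an unadjusted p under 0.05, where 2408 of 14983 tested genes had. All 10 also had one without C replicate 2, the highest C library for 9 of the 10, where 1855 of 14973 tested genes had. Without the 3 lymph node-rich libraries the median was 0.70, and 4 genes had an unadjusted p under 0.05, where 2017 of 14777 tested genes had. The direction was the same for each of the 10 genes in each of these fits.

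The same question in trained mice (TE vs E) gave smaller differences for most members. The median log2 fold change was 0.05, and 7 of the 10 genes were higher. C1qb was at 5.99, 8.1, 7.65 and 4.24 CPM in E and at 6.74, 9.47, 11.1 and 9.26 in TE, a log2 fold change of 0.49 ± 0.26 (edgeR's adjusted p = 0.590). C1qa was at 6.72 to 12.8 CPM in E and 10.9 to 15.7 in TE (log2 fold change 0.44 ± 0.23, edgeR's adjusted p = 0.598). Cd68, Csf1r, Cd163, C1qc and Lyz2 had log2 fold changes between -0.07 and 0.06. None of the 10 passed the adjusted threshold, where 0.231% of all genes passed, and 1 (Gpnmb, lower in TE) had an unadjusted p under 0.05, where 9.23% of all genes had. Without the 3 lymph node-rich libraries the median was -0.12 and 3 of the 10 were higher.

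Averaged over training, tumor-bearing mice had higher values of 9 of the 10 genes (median 0.43 on the log2 scale). C1qb had the smallest adjusted p of the 10, with a log2 fold change of 0.66 ± 0.18 (edgeR's adjusted p = 0.0911). C1qa followed with 0.52 ± 0.16 (edgeR's adjusted p = 0.140), Mrc1 with 0.54 ± 0.20 (edgeR's adjusted p = 0.212), Adgre1 with 0.64 ± 0.29 (edgeR's adjusted p = 0.333) and Cd163 with 0.61 ± 0.29 (edgeR's adjusted p = 0.350). These 5 had an unadjusted p under 0.05, against 7.41% of all genes called higher, and none passed the adjusted threshold, which 1.36% of all genes did. DESeq2 called 2 of the 10 in this comparison, C1qa (adjusted p = 0.0447) and C1qb (adjusted p = 0.0134), and 2.96% of all genes. Without the 3 lymph node-rich libraries the median was 0.29. There 2 genes had an unadjusted p under 0.05, where 1714 of 14777 tested genes had one in either direction.

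**Figure D2:**
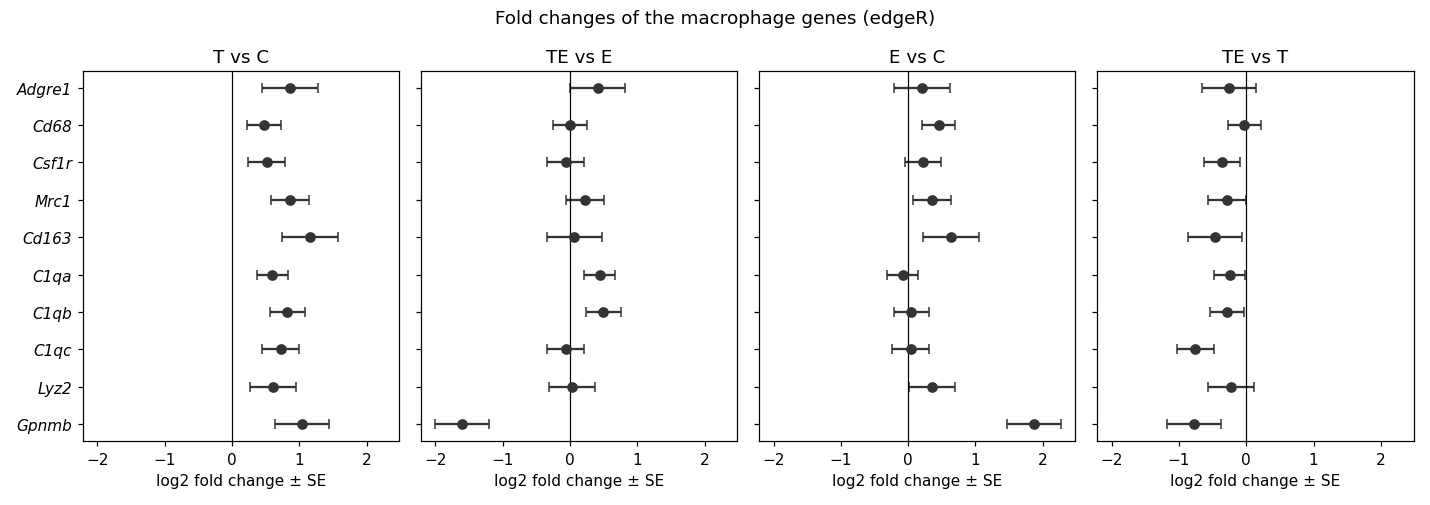
Log2 fold change (horizontal axis, points with the standard error of edgeR's fit as whiskers) of each macrophage gene (vertical axis) in T vs C, TE vs E, E vs C and TE vs T. In T vs C all 10 points lie above 0, at 0.48 to 1.16, in TE vs T all 10 lie below 0, and Gpnmb stands apart in TE vs E and E vs C.

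The second question was whether training alone changed these genes (E vs C). For 9 of the 10 the log2 fold changes ran from -0.08 for C1qa to 0.63 ± 0.41 for Cd163 (edgeR's adjusted p = 0.510), and the E and C libraries of each of these 9 overlapped. E replicates 2 and 3 were the higher E libraries for Adgre1, Csf1r, Mrc1 and Cd163, and E replicates 1 and 4 the lower. Mrc1, for example, had 6.31, 11.3, 15.6 and 7.8 CPM in E. Cd163 had 1.92, 5.89, 5.67 and 3.1 CPM in E.

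Gpnmb differed from the others. It was at 1.66, 1.39, 1.57 and 1.43 CPM in C, a spread of 0.124 around 1.51, and at 9.96, 4.75, 3.49 and 3.91 CPM in E, where the mean was 5.53 ± 3. All 4 E libraries were above all 4 C libraries, the log2 fold change was 1.87 ± 0.40, a 3.65-fold difference, and the adjusted p was 0.0867 (edgeR). It had 52 to 58 counts a library in C and 138 to 379 in E. No member passed the adjusted threshold in E vs C, where 0.0881% of all genes did. Gpnmb was the 1 member with an unadjusted p under 0.05, where 14.2% of all genes had, and the 1 member whose groups did not overlap, where 9.08% of all genes did not. DESeq2, which called 2.23% of all genes, called it (adjusted p = 0.000746). So did edgeR fitted on the C and E libraries alone (adjusted p = 0.0224, 1.29% of all genes called), without the filter on low counts (adjusted p = 0.027, 0.189%), without T replicate 3 (adjusted p = 0.0415, 0.848%) and without T replicate 4 (adjusted p = 0.0129, 0.2%). Without E replicate 1, the highest library and 1 of the 3 rich in lymph node genes, the log2 fold change was 1.42, and without all 3 it was 1.44 (edgeR's adjusted p = 0.173), with TE vs E then at -1.10 and the interaction at -2.15. Gpnmb lies at chr6:49013426-49047863 on the plus strand of GRCm39, and a noncoding RNA of the opposite strand, Gm56981, overlaps it.

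In tumor-bearing mice Gpnmb did not show this difference. It was at 1.76, 2.02, 1.97 and 6.71 CPM in T and at 2.28, 1.59, 1.8 and 1.61 CPM in TE. Only T replicate 4, the library with the high Myh3, stood at the level of the E libraries. TE vs E gave a log2 fold change of -1.60 ± 0.40, with all 4 TE libraries below all 4 E libraries (edgeR's adjusted p = 0.123, DESeq2's 0.00682 with 1.17% of all genes called), and 6.62% of all genes had groups that did not overlap in that comparison. T vs C gave 1.04 ± 0.40 (edgeR's adjusted p = 0.246), with all T libraries above all C libraries by a narrow margin (1.76 against 1.66 CPM), where 6.86% of all genes had groups that did not overlap, and without T replicate 4 the log2 fold change was 0.34. The interaction of tumor and training, which asks whether training acted alike in mice with and without tumors, had a log2 value of -2.64 ± 0.57 for Gpnmb (edgeR's adjusted p = 0.389). No gene had a smaller one by edgeR, and DESeq2 gave Gpnmb an adjusted p of 0.00502 and called 0.124% of all genes.

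In E vs C and TE vs E, most markers of fibroblasts and mast cells changed in the same direction as Gpnmb. The 4 fibroblast markers, Pdgfra, Col1a1, Col3a1 and Dcn, had log2 fold changes with a median of 0.66 in E vs C, and their summed level was 799 to 1102 CPM in C and 1166 to 1505 CPM in E, without overlap. The summed mast cell markers were 8.4 to 17.7 CPM in C and 17.1 to 34 CPM in E, which overlapped. Within E the sums did not follow Gpnmb by library. E replicate 1, the highest in Gpnmb, had the lowest fibroblast sum in E (1166 CPM). E replicate 3, the lowest in Gpnmb within E, had the highest mast cell sum (34 CPM). All 4 fibroblast and 3 of the 5 mast cell markers were higher at an unadjusted p under 0.05, and none of the 9 was called. In TE vs E, where Gpnmb was lower, the fibroblast markers had a median of -0.58, with all 4 lower at an unadjusted p under 0.05 and a summed level of 869 to 980 CPM in TE, below every E library. The mast cell markers had a median of -1.05 there, with 4 of the 5 lower at that threshold and 9.75 to 14.5 CPM in TE, also below every E library, and again none of the 9 was called. The most abundant mast cell genes, the proteases Mcpt4, Cma1 and Tpsb2, had log2 fold changes of 1.02, 0.76 and 1.30 in E vs C and of -1.05, -1.06 and -0.80 in TE vs E. Those of Col1a1, Col3a1 and Dcn were 0.87, 0.65 and 0.44, and then -0.88, -0.69 and -0.44. Kit, the 1 mast cell marker that was lower in E vs C, had -0.47 there (edgeR's adjusted p = 0.696) and -1.02 in TE vs E. Melanocyte markers, which mark another source of Gpnmb, summed to 0.105 to 0.785 CPM in the 16 libraries, with Tyr at 0 in all, and Tyrp1, the 1 tested, had a log2 fold change of 0.20 in E vs C. The part of fibroblasts and mast cells in the Gpnmb difference was not tested.

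**Figure D3:**
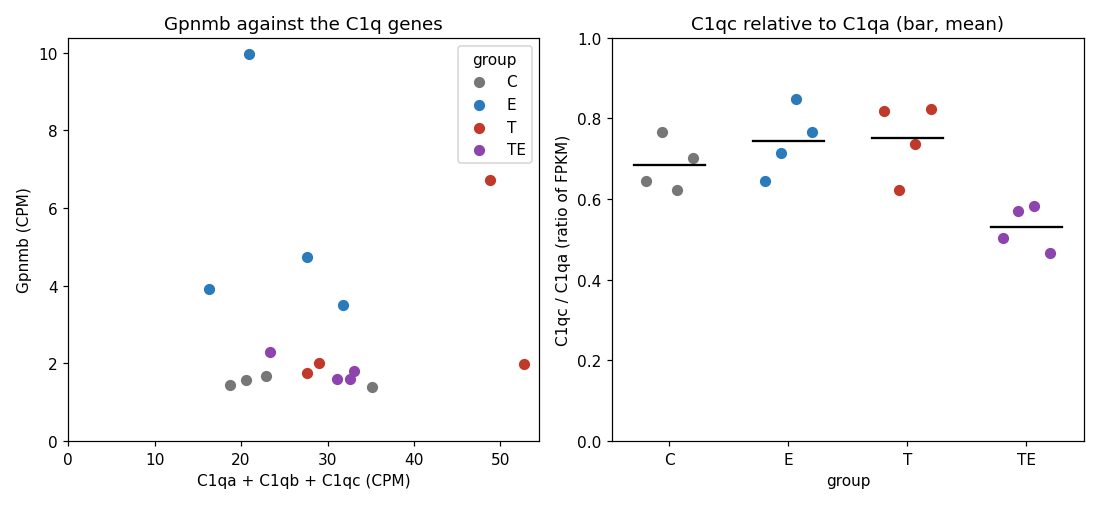
Left, Gpnmb against the sum of C1qa, C1qb and C1qc in each library, both in CPM. Right, the ratio of C1qc to C1qa in FPKM by group, with points for the 4 libraries and a bar for the mean. The E libraries stand above the C libraries in Gpnmb at like C1q sums, and the 4 TE ratios, from 0.467 to 0.582, lie below the other 12.

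The third question was whether training changed the genes in tumor-bearing mice (TE vs T). All 10 had a lower fitted level in TE, with a median log2 fold change of -0.29, and the groups overlapped for each of them, where 2.58% of all genes had groups that did not. Neither any member nor any other gene passed the adjusted threshold (0% of all genes). 1 member, C1qc, had an unadjusted p under 0.05, where 5.88% of all genes had, and no member was called by limma or by DESeq2, which called 0.0294% of all genes. C1qc was at 9.35, 7.88, 16.8 and 15.9 CPM in T and at 5.7, 8.02, 8.27 and 7.63 CPM in TE, a log2 fold change of -0.75 ± 0.28 (edgeR's adjusted p = 0.758). C1qa over the same mice was at 11, 12.2, 21.9 and 18.6 and then at 10.9, 13.6, 13.7 and 15.7 CPM, and had a log2 fold change of -0.24 ± 0.23 (edgeR's adjusted p = 0.942). The median moved with single libraries: it was -0.14 without T replicate 3 and -0.11 without T replicate 4, where 3 of the 10 were higher in TE, and -0.44 without T replicate 1, -0.43 without T replicate 2 and -0.43 without TE replicate 4. Without the 3 lymph node-rich libraries it was -0.43 and none of the 10 was higher. Fitted levels of markers of other cells moved beside these values. Neutrophil markers were lower in TE in 9 of 10 tested genes, with a median of -0.50, 2 of them (Ltf and Ngp) at an unadjusted p under 0.05, and their summed level was 11.3 to 55.6 CPM in T and 14.4 to 28.3 CPM in TE. B cell markers were higher in TE in 6 of 6 genes, all at an unadjusted p under 0.05, with 59.3 CPM in TE replicate 4, 0.223 to 0.749 CPM in the other TE libraries and 0.115 to 0.579 CPM in T. T cell markers were higher in TE in 7 of 7 genes, 6 of them at an unadjusted p under 0.05. This too rested on TE replicate 4, at a summed 28.1 CPM. The other TE libraries had 0.194 to 0.706 CPM and the T libraries 0.332 to 1 CPM. No gene of these lists was called, and their part in the members' differences was not tested. The T libraries are shared by this comparison and T vs C, and the high T replicates 3 and 4 enter the 2 with opposite signs.

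The 2 other fits of the design gave no member either. Training averaged over tumor state had 5 of 10 members higher, a median of 0.00, and none with an unadjusted p under 0.05, where 10.8% of all genes had and 0.00678% passed the adjusted threshold. The interaction was below 0 for all 10 members, with a median of -0.58. 1 (Gpnmb) had an unadjusted p under 0.05, where 9.21% of all genes had. No gene passed the adjusted threshold for the interaction (0%).

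The ratio of C1qc to C1qa was then compared, because the chains are assembled together. It was chosen after the values had been seen. Per length, C1qc was 0.623 to 0.768 of C1qa in C, 0.644 to 0.848 in E, 0.622 to 0.824 in T and 0.467 to 0.582 in TE. The 4 TE libraries were the lowest 4 of the 16. The log2 difference was -0.50 ± 0.12 (SE) in TE vs T and -0.49 ± 0.11 in TE vs E. Each had p = 0.0286 by a two-sided exact permutation test of 4 against 4 libraries, the smallest that test allows. After adjustment over the 8 comparisons of this and the C1qb to C1qa ratio it was 0.114. With the 4 TE libraries lowest, the test could return no other p, and the adjustment does not cover the choice of this ratio. These p are thus a description, and no conclusion is drawn from them. C1qb relative to C1qa ranged from 0.490 to 0.796 over all libraries, and the smallest p of its 4 comparisons was 0.2 by that exact test. The C1qc counts behind these ratios were 198 to 637 a library.

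Across the 16 libraries the members other than Gpnmb moved together. Over the 36 pairs of these 9 genes, Pearson's r of log2 CPM had a median of 0.81 and ran from 0.53 to 0.93. With the group means removed the median was 0.81, from 0.43 to 0.94, so the shared movement was also present between mice of a group. Gpnmb had r of -0.10 to 0.47 with the 9. All genes of a pair were read from the same 16 libraries, so these r describe the libraries and carry no test.

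**Figure D4:**
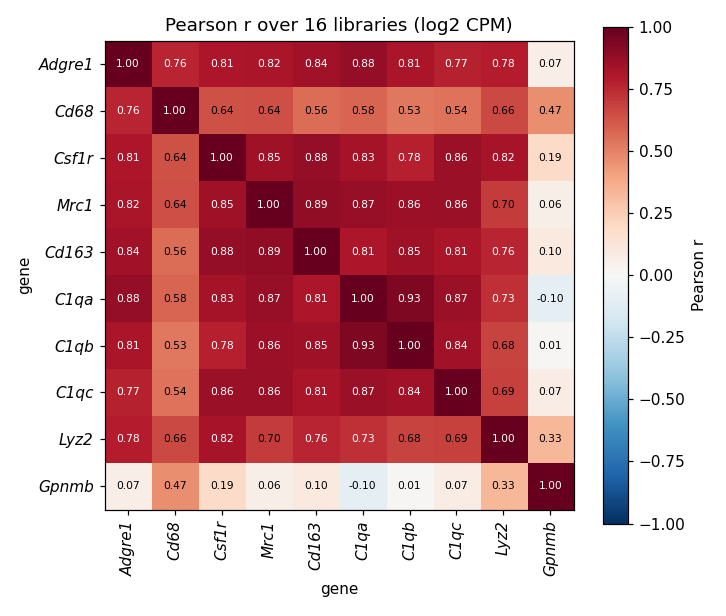
Pearson's r over the 16 libraries between each pair of macrophage genes, computed on log2 CPM, with the genes on both axes and r given by color and number. The block of 9 genes has r of 0.53 to 0.93, and the row of Gpnmb stays between -0.10 and 0.47.

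T replicate 4 was the first or second highest library for all 10 members and T replicate 3 for 7, and the other libraries reached that place in at most 1 member each. C replicate 4 and E replicate 4 were each the lowest library for 3 members. The summed C1q chains show the spread: 24.3 ± 7.42 CPM in C, 24.2 ± 6.9 in E, 39.5 ± 13.1 in T and 30.0 ± 4.52 in TE, with 52.7 and 48.8 CPM in T replicates 3 and 4 and 27.7 and 29.0 in T replicates 1 and 2.

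The tested genes outside the list whose pattern was most like the 10, by the mean of their r with them over 16 libraries, were Itgam (0.76), Fcgr2b, Ccl9, F13a1, Pros1, C3, Ccr2, Lox, Mmp19 and Trf (0.69). Itgam encodes the CD11b integrin of myeloid cells, at 1.4, 1.88, 0.756 and 0.605 CPM in C and 1.93, 1.46, 5.39 and 4.81 CPM in T. T replicates 3 and 4 again stood above the others. Its log2 fold change in T vs C was 1.55 (edgeR's adjusted p = 0.115).

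Further macrophage lists were read beside the members, each against the median of all genes near 0. Of 20 other identity genes, 19 were tested and 17 were higher in T vs C (median 0.75 on the log2 scale), and none was called. Their medians were 0.48 in TE vs E, 0.19 in E vs C and -0.16 in TE vs T. Tyrobp, an adaptor of activating myeloid receptors, had 0.35, and Ctss, a lysosomal protease, had 0.77. Of 13 tested resident macrophage genes, 8 were higher in T vs C with a median of 0.21, and none was called: the most abundant, Cbr2, had a log2 fold change of -0.53 (edgeR's adjusted p = 0.321), Pf4 one of -0.01, and the chemokine Ccl8 one of 1.82 (edgeR's adjusted p = 0.213). Of 9 tested monocyte genes, 6 were higher with a median of 0.52, among them Ly6c1 (0.52, edgeR's adjusted p = 0.178), which endothelium also makes, and none was called. Nr4a1 and Ace, the other abundant genes of this list, had -0.08 and 0.29. The 11 lipid and lysosome genes had a median of 0.25: Ctsd, Ctsb and Apoe, which many cells make, had 0.07, 0.08 and 0.35, and Lgals3, a galectin of macrophages and regenerating muscle, was called.

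Lgals3 rose in T vs C by a log2 fold change of 1.05 (edgeR's adjusted p = 0.048), from 7.4, 8.81, 7.39 and 7.31 CPM in C to 15.8, 10.1, 17.7 and 20.4 CPM in T. The groups did not overlap. Of 6 tested inflammatory genes, 2 were called, in opposite directions. Nos2, the inducible nitric oxide synthase, fell by 1.25 on the log2 scale in T vs C (edgeR's adjusted p = 0.048), from 6.97, 7.72, 11.3 and 12.5 CPM in C to 3.46, 5.06, 2.03 and 5.61 CPM in T. Il1b, a cytokine of macrophages and neutrophils, rose by a log2 fold change of 2.07 in the tumor comparison averaged over training (edgeR's adjusted p = 0.019), from 0.11 to 0.546 CPM in the tumor-free libraries to 0.415 to 2.01 CPM in the tumor-bearing ones. Cd86, a costimulatory ligand, had a log2 fold change of -0.23 in T vs C. Il12b was at 0 in all libraries. Of 5 tested alternative activation genes, none was called in T vs C, where Retnla had -0.34, Il4ra 0.66 and Tgfbi -0.09. Of 5 tested chemokine genes, none was called, and Ccl6, Ccl9 and Ccl2 had 1.18, 0.87 and 0.25.

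Markers of other cells were read as sums, and none of those named here was called in any comparison. Summed dendritic cell markers were 9.36 to 14.4 CPM in C and 10 to 14.9 CPM in T, and the most abundant were Zbtb46, Cd209a and Ccr7, at means of 1.21, 0.819 and 0.287 FPKM over the 16 libraries. B cell, T cell and lymph node stroma markers were highest in the 3 libraries named above. Their most abundant genes were, in mean FPKM, Cd79a (1.5), Cd79b (1.26) and Ms4a1 (0.446) of B cells, and Cd3g (0.536), Lck (0.447) and Cd3e (0.315) of T cells. Those of lymph node stroma were the chemokine Ccl21a (14), Glycam1 (3.66) and Cxcl13 (2.3). Lymphatic endothelium markers were highest in TE replicate 4, at 69.3 CPM, and were led by Ccl21a, Pdpn (2.88) and Flt4 (2.18). Ccl21a, which is also on the lymph node stroma list, made up 39.4 of these 69.3 CPM, so the 2 sums are not separate observations. Skeletal muscle markers had log2 fold changes with a median of 0.14 in T vs C, and Acta1, Ckm and Tnnt3 had 0.14, 0.09 and -0.10.

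**Figure D5:**
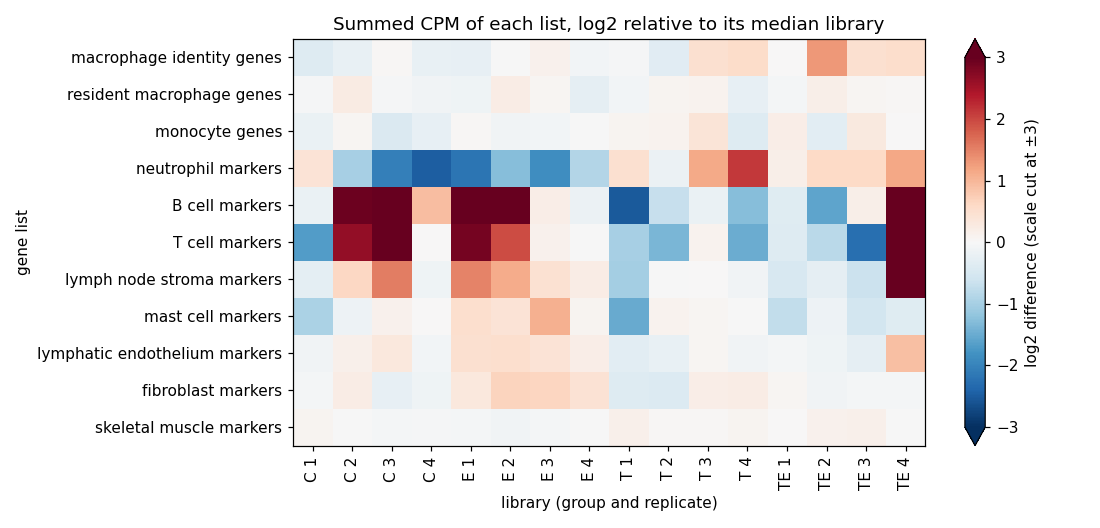
Summed CPM of each marker list (vertical axis) in each library (horizontal axis), as the log2 difference from that list's median library, with the color scale ending at 3 and -3. B cell, T cell and lymph node stroma markers stand out in TE replicate 4, C replicate 3 and E replicate 1, and neutrophil markers in T replicate 4, at 55.6 CPM.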

How the data were processed

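RNA of 16 gastrocnemius samples, 4 mice in each of 4 groups, was analysed from 2 deposited tables, with groups taken from the labels. The authors trimmed reads with fastp 0.20.1, aligned them with HISAT2 2.1.0 to GRCm39 and deposited raw counts per gene from HTSeq 0.11.2 (versions from the submitters' processing notes). The authors also deposited FPKM values, which were checked to be the counts scaled by length and total in 16037 genes. Which annotation release and strand setting were used is not given in the sources used here. The tables held 0 columns of other samples.

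Counts were tested with edgeR 4.0.16 in R 4.3.3: filterByExpr (14749 of 35415 genes), TMM scaling, 1 coefficient per group over all 16 libraries, the quasi-likelihood test, and Benjamini-Hochberg adjustment over all tested genes, two-sided, with an adjusted p under 0.05 as the call. SE is the absolute log2 fold change divided by the square root of F. CPM are TMM-scaled, and log2 CPM use a prior count of 2. The fit was tested on simulated data. Intervals between samples cover the spread between mice, and counts of PCR reads are not independent molecules. No 2 libraries were duplicates.

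The 10 genes and all gene lists were chosen with earlier results of these data known. Named from each list are the 3 tested genes with the highest mean FPKM and every gene called in a comparison, and outside the lists the 10 tested genes with the highest mean correlation with the members. 1 gene that this rule names is not reported here. Genes singled out beside these (Myh3, Lyz1, Pdgfra, Kit, Tyr, Il12b and genes like Gpnmb) were chosen after their values were seen. Alternatives were DESeq2 1.42.0, RLE scaling, no filter, a replicate block and, for pairwise comparisons, a fit of only the 2 groups compared. Others were limma 3.58.1 on log2(FPKM + 1) and log2(FPKM + 0.1), and a filter at a mean FPKM of 1. The fold change rule of the study (above 2 or below 0.5) and an unadjusted p under 0.05 were also applied. Each library was left out in turn, and 3 libraries were left out together. Same-numbered replicates are different mice and were not paired. Gene positions are from GENCODE for GRCm39, promoters from RefSeq for GRCm38.p6. Figures used matplotlib 3.10.9 (Python 3.11.15).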

Additional observations from a re-analysis of the deposited data

Results flagged for a closer look

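In groups of 4 libraries, 4 of 40 sets of values (10 genes in 4 groups) had 1 library far from the other 3, by the 95% critical value of Dixon's ratio of gap to range. Chance flags about 1 in 20 such sets. Csf1r was at 14.3 CPM in C replicate 2, against 7.17 to 8.14 in the other C libraries. C1qb was at 9.48 CPM in the same library, against 4.8 to 5.47. Lyz2 was at 113 CPM in TE replicate 4, against 44.7 to 55.8 in the other TE libraries. Gpnmb was at 6.71 CPM in T replicate 4, against 1.76 to 2.02 in the other T libraries.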

How the results depend on the processing

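No member was called in any of the 7 comparisons by edgeR with all libraries, and the calls under other settings were few. DESeq2 called 1 member in T vs C (C1qb; 2.85% of all genes), 1 in TE vs E (1.17%), 1 in E vs C (2.23%) and 1 in the interaction (0.124%), Gpnmb in each of these 3, and 2 for tumor averaged over training (C1qa and C1qb, 2.96%). Without the filter on low counts 1 member was called in E vs C (Gpnmb; 0.189% of all genes) and 1 for tumor averaged over training (C1qb; 1.12%), and with only the groups compared 1 in E vs C (Gpnmb; 1.29%). At an unadjusted p under 0.05 the counts were 6 in T vs C, 1 in TE vs E, 1 in E vs C, 1 in TE vs T, 5 for tumor averaged over training and 1 for the interaction. With each library left out in turn the counts ran from 0 to 1 in TE vs E (1 without T replicate 4, 0.281% of all genes), from 0 to 1 in E vs C (1 without T replicate 3 or 4) and from 0 to 1 for tumor averaged over training (1 without C replicate 2, 0.955%). The cause of these changes was not tested. No direction of a member with an unadjusted p under 0.05 turned in any setting run. The replicate number as a block called 0 members in each comparison and gave a median log2 fold change of 0.77 in T vs C. Same-numbered libraries had deviations from their group means that correlated between -0.24 and 0.21, so the numbers were not read as pairs. At 18 to 105 counts a library, Adgre1 was the member with the least depth.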

Other observations

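Among tested genes outside the 10 members, those whose pattern over the 16 libraries was most like that of Gpnmb were Ctsk (r = 0.88), Col12a1 (0.83), Tpbg (0.81), Mmp12 (0.81), Mfap4 (0.79), Cdh11 (0.79) and Col1a1 (0.77), followed by Il1rl2, Sh3pxd2b and Anxa8. Ctsk, which is also on the list of lipid and lysosome macrophage genes, encodes a collagen-degrading protease of osteoclasts, macrophages and fibroblasts, Mmp12 is on none of the lists, and Col12a1, Mfap4 and Col1a1 encode matrix proteins. Ctsk was at 3.88, 5.92, 3.72 and 4.01 CPM in C, at 9.33, 7.23, 6.68 and 7.23 CPM in E, at 4.85, 3.87, 5.29 and 10.03 CPM in T and at 4.51, 3.68, 4.91 and 4.76 CPM in TE. All 4 E libraries and T replicate 4 were thus above the other 11. Its log2 fold change in E vs C was 0.80 (edgeR, adjusted p = 0.168). Mmp12, the macrophage elastase, was at 3.89 CPM in E replicate 1, the library with the highest Gpnmb, and at 0.0553 to 0.746 CPM in the other 15.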
